A study of Mus musculus with 6 samples.

Results

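Reactive astrocyte genes are genes that astrocytes, the star-shaped support cells of the brain, turn on after an injury. The 10 genes described here, *Gfap*, *Vim*, *Serpina3n*, *Lcn2*, *Cd44*, *Steap4*, *S1pr3*, *Cp*, *Aspg* and *Cd109*, were listed by symbol as genes with this known response, at a time when earlier results of these data were known. Each was matched through its Ensembl identifier without the version, and the 10 genes were found among the 52550 genes listed for every library. All 10 also passed the filter on low counts, which left 18795 genes to be tested.

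Hippocampal RNA was sequenced from 3 sham and 3 TBI mice, with 1 library per mouse, named Sham1, Sham2, Sham3, TBI1, TBI2 and TBI3. The mice were male and of the strain C57BL / 6 in the labels (C57B6/J in the study's methods), aged 8 to 10 weeks, and no transgene is named. TBI mice received a controlled cortical impact, a piston strike on the exposed cortex, over the right parietal bone. Sham mice had the anaesthesia and the opening of the skull but no strike, so both groups carried a surgical wound, and all tissue was taken 24 h after surgery. The sources used here do not say whether 1 or both hippocampi of a mouse went into its library.

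An astrocyte that meets damaged tissue enlarges its processes and makes more of the intermediate filaments GFAP and vimentin. At the same time it secretes protease inhibitors and acute-phase proteins and carries more matrix and lipid receptors on its surface. Cytokines of the interleukin-6 family, which act through the receptor chain gp130 and the transcription factor STAT3, are a known trigger of this state, as are signals through NF-kB. Most of these genes are also made by other cells, such as vimentin and CD44 by cells of vessels and by immune cells. In bulk tissue, more cells of a type and more RNA per cell cannot be told apart.

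A pair of libraries stood apart from their groups, and the tests of the 10 genes below are given with and without them. The library labelled Sham2 held the highest level of 9 of the 10 genes, with a summed level of 5022 CPM (counts per 1000000 counts of the library, after scaling between libraries), against 740.3 in Sham1 and 742.0 in Sham3. It also had the lowest summed level of oligodendrocyte markers, 3103 CPM against 9095 to 11160 in the other 5 libraries, and of choroid plexus markers, 55.58 CPM against 244.4 to 2401. The library labelled TBI1 held 5038 CPM of striatal neuron markers, against 162.4 to 247.6 in the other 5, and the lowest level of 9 of 10 hippocampal neuron markers. *Wfs1*, the other one, was highest there, at 275.6 of a summed 455.8 CPM, against sums of 487.5 to 1051 in the other 5. Counts per library summed to between 31630936 and 41771872. The deposited counts are estimates that pile up at multiples of 4, so no counting interval was drawn from them.

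The promoters of 3 genes are shown first: both that held a match to a STAT-type motif, *Gfap* and *Steap4*, and that of *Serpina3n* as an example with an NF-kB-type match alone. RefSeq promoter sequences on GRCm38.p6, from 250 bases before a transcription start to 50 bases from the start on, were at hand for 9 of the 10 genes, with 2 starts for *Cp*. The search covered 4 patterns on both strands, TTCNNNGAA (STAT type), GGGNNTTTC (NF-kB type), TGANTCA (AP-1 type) and TATAAA (the TATA box). Capitals below mark matches to the STAT-type and NF-kB-type patterns. *Gfap* lies on the minus strand of chromosome 11 and its window spans chr11:102897151-102897450. *Steap4*, on the plus strand of chromosome 5, has its window at chr5:7960222-7960521, and that of *Serpina3n*, on the plus strand of chromosome 12, is chr12:104406458-104406757.
Gfap: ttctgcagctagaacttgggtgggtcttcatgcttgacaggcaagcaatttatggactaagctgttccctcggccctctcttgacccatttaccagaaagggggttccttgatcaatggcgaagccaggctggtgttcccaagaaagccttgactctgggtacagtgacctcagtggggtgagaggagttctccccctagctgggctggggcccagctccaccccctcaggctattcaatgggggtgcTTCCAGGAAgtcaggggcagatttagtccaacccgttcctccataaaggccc
Steap4: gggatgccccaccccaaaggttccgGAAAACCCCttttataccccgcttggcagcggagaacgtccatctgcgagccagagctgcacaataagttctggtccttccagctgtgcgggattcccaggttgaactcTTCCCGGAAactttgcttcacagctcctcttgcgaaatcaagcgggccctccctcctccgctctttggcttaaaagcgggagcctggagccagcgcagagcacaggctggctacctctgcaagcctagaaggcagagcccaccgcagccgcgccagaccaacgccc
Serpina3n: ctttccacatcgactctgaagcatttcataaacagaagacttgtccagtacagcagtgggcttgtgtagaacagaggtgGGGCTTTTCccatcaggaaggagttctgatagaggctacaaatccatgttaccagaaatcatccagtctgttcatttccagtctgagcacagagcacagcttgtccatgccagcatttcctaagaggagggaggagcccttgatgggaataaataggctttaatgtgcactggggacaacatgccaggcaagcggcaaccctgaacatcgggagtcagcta

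The STAT-type pattern occurred in *Gfap*, from 2 bases before the start to base 7 of the transcript, and in *Steap4*, from 116 to 108 bases before the start. It was present in 8.30% of all 32851 promoters. NF-kB-type matches lay in *Steap4* (225 to 217 bases before the start), *Serpina3n* (171 to 163 bases before) and *Vim* (222 to 214 bases before), against 4.36% of all promoters. An AP-1-type match was found in *Cp* alone among the members, 177 to 171 bases before 1 of its starts, and in 7.81% of all promoters. TATAAA occurred in *Vim*, *Cp* and *Steap4* and in 13.6% of all promoters. In *Vim* it lay 32 to 27 bases before the start. The windows of *Lcn2*, *Cd44*, *Aspg* and *S1pr3* held none of the 4 patterns. A match describes letters only, and no binding was measured.

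The intermediate filament genes come first. *Gfap* (ENSMUSG00000020932.14, chromosome 11, 102887336 to 102900912, minus strand of GRCm38) encodes the filament protein that defines astrocytes. Its level was 622.8 CPM in Sham1, 4055 in Sham2, 632.0 in Sham3, 1478 in TBI1, 1240 in TBI2 and 540.9 in TBI3. Sham2 lay above every TBI library, by 2.74 times over the highest, while TBI3 lay below all 3 sham libraries. The groups therefore overlapped, with 1770 ± 1979 CPM in sham and 1086 ± 487 CPM in TBI (mean ± SD, n = 3). In TBI against sham its log2 fold change was −0.70 (SE 0.801, adjusted p = 0.982, edgeR's quasi-likelihood test with Benjamini-Hochberg adjustment).

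*Vim* (ENSMUSG00000026728.9, chromosome 2, 13573927 to 13582826, plus strand) encodes vimentin, the filament that reactive astrocytes assemble together with GFAP. It measured 37.24 CPM in Sham1, 142.7 in Sham2, 33.86 in Sham3, 119.8 in TBI1, 60.46 in TBI2 and 56.64 in TBI3. All 3 TBI libraries lay above Sham1 and Sham3 and below Sham2. Group means were 71.26 ± 61.88 CPM in sham and 78.96 ± 35.39 in TBI (SD, n = 3), and the log2 fold change was 0.15 (SE 0.614, edgeR adjusted p = 0.992).

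**Figure D1:**
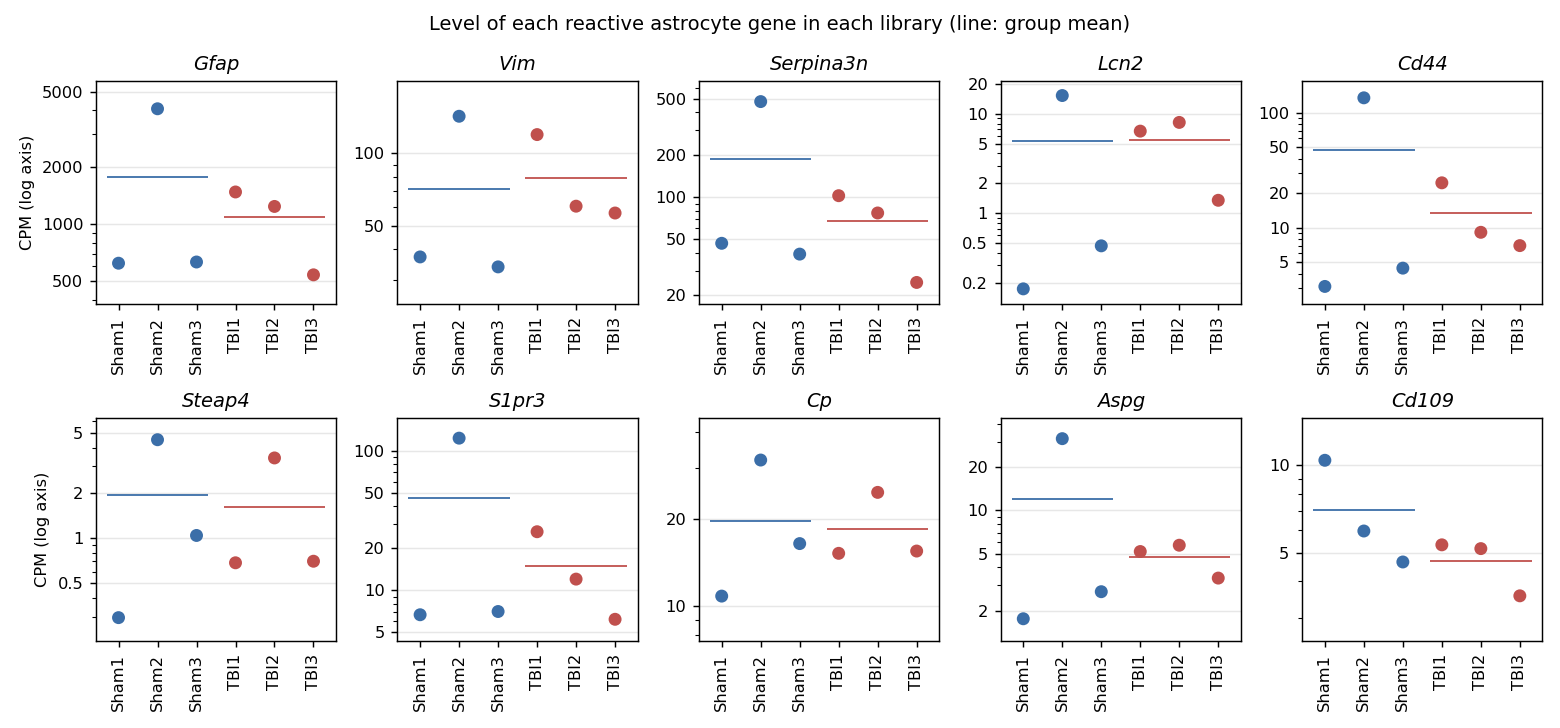
Level of each of the 10 genes in CPM (vertical log axis, 1 panel per gene) in the 6 libraries (horizontal axis), with sham in blue, TBI in red and a line at the mean of each group. Sham2 is the highest point in 9 panels, and in the *Cd109* panel Sham1 is highest, at 10.42 CPM.

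Among the secreted and acute-phase genes, *Serpina3n* (ENSMUSG00000021091.8, chromosome 12, 104406729 to 104414329, plus strand) encodes a serine protease inhibitor of the alpha-1-antichymotrypsin type. Levels were 46.92 CPM in Sham1, 477.4 in Sham2, 39.31 in Sham3, 102.3 in TBI1, 77.08 in TBI2 and 24.72 in TBI3. Sham2 was 11.1 times the mean of the other sham libraries and 4.67 times TBI1, the highest TBI library, and TBI3 was the lowest of the 6. The fitted log2 fold change was −1.47 (SE 1.05, edgeR adjusted p = 0.982). The gene belongs to a cluster of near-identical copies, so its counts could hold reads of its neighbours.

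*Lcn2* (ENSMUSG00000026822.14, chromosome 2, 32384633 to 32388252, minus strand) encodes lipocalin-2, a secreted protein that binds iron-carrying siderophores. Its estimated counts were 7 in Sham1, 615 in Sham2, 18 in Sham3, 274 in TBI1, 260 in TBI2 and 48 in TBI3, or 0.173, 15.3, 0.469, 6.71, 8.22 and 1.35 CPM. Each TBI library was above Sham1 and Sham3, and Sham2 was above them all, 47.8 times the mean of the other sham libraries. The group means, 5.32 ± 8.67 CPM in sham and 5.43 ± 3.61 in TBI (SD, n = 3), were almost equal, and the log2 fold change was 0.027 (SE 1.49, edgeR adjusted p = 0.999).

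Ceruloplasmin, the copper-binding ferroxidase encoded by *Cp* (ENSMUSG00000003617.16, chromosome 3, 19957054 to 20009145, plus strand), is anchored on astrocytes and secreted by the liver and choroid plexus. It measured 10.86 CPM in Sham1, 32.05 in Sham2, 16.49 in Sham3, 15.26 in TBI1, 24.78 in TBI2 and 15.54 in TBI3. TBI1 and TBI3 lay between Sham1 and Sham3, so the order of the libraries was less steep than for *Lcn2*. Its log2 fold change was −0.097 (SE 0.418, edgeR adjusted p = 0.992). Of its 9566 exon bases, 108 overlap the gene *Hps3* on the other strand, and the use of strand in the counting is not given in the sources used here.

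Another 3 genes encode proteins of the cell surface. *Cd44* (ENSMUSG00000005087.17, chromosome 2, 102811141 to 102901665, minus strand) encodes the receptor for hyaluronan, a polysaccharide of the extracellular matrix. Its level was 3.087 CPM in Sham1, 135.2 in Sham2, 4.454 in Sham3, 24.62 in TBI1, 9.133 in TBI2 and 6.996 in TBI3. Every TBI library exceeded Sham1 and Sham3, and Sham2 exceeded the highest TBI library 5.49 times. Group means were 47.57 ± 75.86 CPM in sham and 13.58 ± 9.62 in TBI (SD, n = 3), with a log2 fold change of −1.81 (SE 1.42, edgeR adjusted p = 0.982).

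*S1pr3* (ENSMUSG00000067586.4, chromosome 13, 51408639 to 51422797, plus strand), a receptor for the lipid sphingosine-1-phosphate, measured 6.692 CPM in Sham1, 122.9 in Sham2, 7.059 in Sham3, 26.29 in TBI1, 12.04 in TBI2 and 6.209 in TBI3. TBI1 and TBI2 lay above Sham1 and Sham3, TBI3 lay below both, and Sham2 was 4.68 times TBI1. Its log2 fold change was −1.62 (SE 1.21, edgeR adjusted p = 0.982). It shares 45 of its 4463 exon bases with *Gm32834*, a long non-coding RNA on the other strand.

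The pattern of *Cd109* (ENSMUSG00000046186.8, chromosome 9, 78615546 to 78716253, plus strand) was different. This gene encodes a membrane-anchored protein of the alpha-2-macroglobulin family that binds TGF-beta receptors. Its level was 10.42 CPM in Sham1, 5.957 in Sham2, 4.663 in Sham3, 5.340 in TBI1, 5.183 in TBI2 and 3.568 in TBI3. Sham1 was the highest library, Sham2 was 0.790 times the mean of the other sham libraries, and TBI3 was the lowest. TBI over sham gave a log2 fold change of −0.58 (SE 0.359, edgeR adjusted p = 0.982).

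The remaining pair encodes enzymes. *Steap4* (ENSMUSG00000012428.9, chromosome 5, 7960457 to 7982213, plus strand), a metalloreductase that reduces iron and copper, had estimated counts of 12 in Sham1, 181 in Sham2, 40 in Sham3, 28 in TBI1, 108 in TBI2 and 25 in TBI3, or 0.296, 4.51, 1.04, 0.686, 3.41 and 0.702 CPM. Only Sham2 and TBI2 were above Sham3, and TBI1, the highest TBI library for 6 of the 10 genes, was here the lowest of the TBI libraries. TBI over sham gave a log2 fold change of −0.29 (SE 1.06, edgeR adjusted p = 0.991).

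*Aspg* (ENSMUSG00000037686.6, chromosome 12, 112106679 to 112127559, plus strand) encodes an asparaginase. Its level was 1.753 CPM in Sham1, 31.75 in Sham2, 2.709 in Sham3, 5.169 in TBI1, 5.720 in TBI2 and 3.372 in TBI3. All TBI libraries were above Sham1 and Sham3 , while Sham2 was 5.55 times the highest of them. Its fitted log2 fold change was −1.34 (SE 1.06, edgeR adjusted p = 0.982).

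A gene was called in the comparison of TBI with sham when its level differed by more than 1.5 times in either direction, its unadjusted p was below 0.05 and its adjusted p below 0.1. None of the 10 genes met these conditions. The share of all tested genes that passed in edgeR was 0%. At an unadjusted p under 0.05, 0 of the 10 genes were higher in TBI, against 2.16% of all genes, and 0 were lower, against 2.13%. DESeq2 with its defaults called 0 of the 10, against 0.221% of the genes it tested, and gave no p for *Cd44* and *Aspg*. The fitted level in TBI was higher for 2 of the 10 genes and lower for 8, with a median log2 fold change of −0.64, beside 0.0091 over all genes tested. No gene separated the groups completely: 0 of the 10 had every TBI library above every sham library, against 4.77% of all genes, and 0 had every TBI library below, against 5.45%.

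The sign of most of these values turned on the library labelled Sham2. Sham2 was the highest of the 6 libraries for 9 of the 10 genes, against 23.7% of all genes tested, and at least 2 times every other library for 5 of them (*Gfap*, *Serpina3n*, *Cd44*, *S1pr3* and *Aspg*), against 2.09%. Set against the mean of Sham1 and Sham3, its log2 level was higher by 5.49 for *Lcn2*, 5.17 for *Cd44*, 4.15 for *S1pr3*, 3.83 for *Aspg* and 3.47 for *Serpina3n*. Smaller differences were found for *Steap4* (2.88), *Gfap* (2.69), *Vim* (2.0) and *Cp* (1.26), and *Cd109* was lower by the log2 difference −0.226. The median over all 18795 genes was 0.0059, and 478 genes exceeded 2 on this scale.

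**Figure D2:**
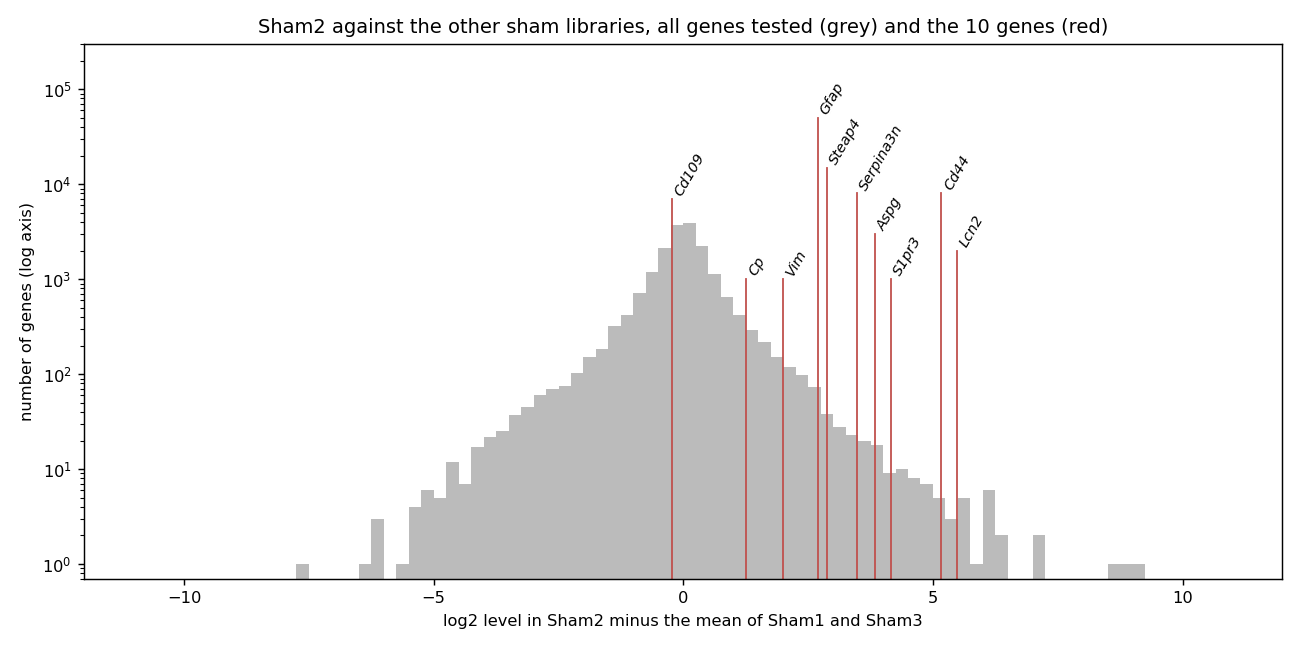
Number of genes (vertical log axis) by the log2 level in Sham2 minus the mean of Sham1 and Sham3 (horizontal axis, bins of 0.25), over the 18795 genes tested in grey, with a red line for each of the 10 genes, whose height carries no value. The lines of 9 genes lie to the right of 0, from 1.26 for *Cp* to 5.49 for *Lcn2*, and that of *Cd109* lies at −0.23.

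With Sham2 left out the sign turned for 7 of the 8 genes that had been lower in TBI, and 9 of the 10 were higher, with a median log2 fold change of 1.10 beside 0.025 over all genes. edgeR then gave an unadjusted p under 0.05 for 4 genes, all higher in TBI (1.91% of all genes tested) and for 0 lower (1.48%). They were *Lcn2*, with a log2 fold change of 4.07 (SE 0.981, unadjusted p = 0.0066), *Cd44* with 1.85 (SE 0.619, unadjusted p = 0.026), *Vim* with 1.15 (SE 0.366, unadjusted p = 0.021) and *Aspg* with 1.09 (SE 0.376, unadjusted p = 0.029). For the same 4 genes all 3 TBI libraries lay above Sham1 and Sham3, a separation seen in 10.1% of all genes, and for 0 genes they lay below both, against 10.4%. None passed the adjustment in edgeR, where the adjusted p was 0.997 and the share of genes called was 0%. In DESeq2 with its defaults 1 of the 10 genes was called, *Lcn2* (adjusted p = 0.00112), against 0.324% of all genes. Sham2 held the highest level of 9 of the 10 genes, so leaving it out raised their fold changes by construction. The shares over all genes are therefore no like-for-like baseline for this fit. The same limit holds for the lists below that were highest in Sham2.

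The other 6 genes gave values within about 2 standard errors of 0 without Sham2. Log2 fold changes were 1.25 (SE 0.989) for *Steap4*, 1.11 (SE 0.600) for *S1pr3*, 0.79 (SE 0.415) for *Gfap*, 0.66 (SE 0.564) for *Serpina3n*, 0.44 (SE 0.310) for *Cp* and −0.68 (SE 0.404) for *Cd109*. *Cd109* was thus lower in TBI with and without Sham2, and in neither fit did it pass the unadjusted threshold.

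Without both Sham2 and TBI1, 2 libraries were left in each group. The limit given for leaving out Sham2 holds here too. *Lcn2* had a log2 fold change of 3.89 (unadjusted p = 0.013), *Cd44* of 1.10 (unadjusted p = 0.015) and *Vim* of 0.72 (unadjusted p = 0.0023), and these 3 of the 10 genes were higher at an unadjusted p under 0.05, against 2.58% of all genes, each with an edgeR adjusted p of 0.853. *Aspg*, with 1.03, had an unadjusted p of 0.056 in edgeR. The call rule in edgeR took 0 of the 10, against 0.0159% of all genes. DESeq2 called 2, *Lcn2* (adjusted p = 0.00832) and *Vim* (adjusted p = 0.0449), against 0.55% of all genes.

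**Figure D3:**
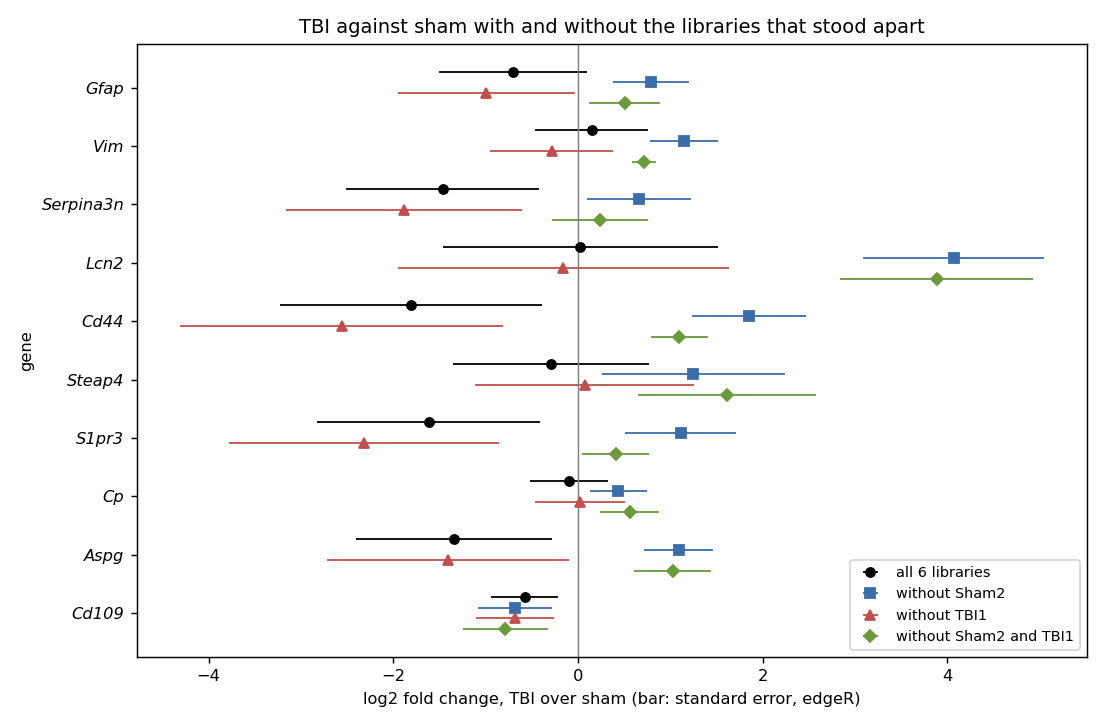
Log2 fold change of TBI over sham (horizontal axis) for each of the 10 genes (vertical axis) from edgeR, with bars of 1 standard error, for all 6 libraries (black circles), without Sham2 (blue squares), without TBI1 (red triangles) and without both (green diamonds). For *Lcn2* the values are 0.027, 4.07, −0.16 and 3.89, while *Cd109* stays below 0 in all 4 fits.

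The TBI libraries also differed among themselves. TBI1 was the highest of the 3 for 6 of the 10 genes, against 36.1% of all genes, and TBI2 for the other 4, *Lcn2*, *Steap4*, *Cp* and *Aspg*. TBI3 was the lowest of the 3 for 8 genes, against 33.1% of all genes, the exceptions being *Steap4* and *Cp*, and its summed level of 660.0 CPM was below those of Sham1 and Sham3. The sums in TBI1 and TBI2 were 1784 and 1446 CPM. Over all 6 libraries the lowest was Sham1 for 5 genes, TBI3 for 4 and Sham3 for 1. *Lcn2*, *Cd44*, *Vim* and *Aspg* were the members above Sham1 and Sham3 in TBI3 as well.

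Compared per kilobase of exon, the 10 genes covered a wide range of levels. *Gfap* was first, with a mean over the 6 libraries of 338.5 CPM per kb, followed by *Serpina3n* with 61.99, *Vim* with 15.84 and *S1pr3* with 6.767, and each of these 4 was above the next in all 6 libraries. Below them came *Cd44* (4.512), *Aspg* (2.389), *Lcn2* (2.049), *Cp* (2.003), *Cd109* (0.849) and *Steap4* (0.563). Neighbours in this lower part changed places between libraries: *Cd44* was above *Aspg* in 3 of 6, *Aspg* above *Lcn2* in 4, and *Lcn2* above *Cp* in 3.

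Other genes that reactive astrocytes share across kinds of injury followed the same libraries. Of 10 further pan-reactive genes, 9 were highest in Sham2, and the sum of the list was 755.3 CPM there against 106.9 to 183.6 in the other 5 libraries. In edgeR 0 of 10 had an unadjusted p under 0.05 in either direction (median log2 fold change −0.71). DESeq2 with its defaults gave a p for 8 of them, and 1 was lower in TBI at that threshold. The edgeR shares of all genes at this threshold are those given above, for this list and the later ones. *Timp1*, an inhibitor of matrix metalloproteases, was listed at 0 in Sham1 and measured 76.84 CPM in Sham2, 0.261 in Sham3, 8.892 in TBI1, 2.876 in TBI2 and 0.253 in TBI3. The small heat shock protein gene *Hspb1* had 323.3 CPM in Sham2 and 4.815 to 23.73 elsewhere. *Synm*, the intermediate filament protein synemin, was the exception, with its highest level of 73.00 CPM in TBI2 and 57.45 in Sham2. Without Sham2, 9 of the 10 genes were higher in TBI, 2 of them at an unadjusted p under 0.05, and the median was 0.49. Without TBI1 as well, 5 of 9 tested were higher and 4 lower, 2 were higher at that threshold, and the median was 0.078.

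Genes known from astrocytes after lipopolysaccharide (LPS), a bacterial inflammatory stimulus, were read as another list. Of its 12 genes 7 were highest in Sham2, and their sum was 338.5 CPM there, 178.6 and 195.6 in Sham1 and Sham3 and 210.5 to 288.8 in the TBI libraries. In the edgeR comparison of all 6 libraries, 2 of the 12 were higher in TBI at an unadjusted p under 0.05, against 2.16% of all genes, and 0 lower. Neither passed the adjustment (edgeR adjusted p = 0.982). These were the class I histocompatibility genes *H2-T23* (log2 fold change 0.68, SE 0.216) and *H2-D1* (0.72, SE 0.269). *H2-D1* measured 39.95 CPM in Sham1, 58.62 in Sham2, 47.20 in Sham3, 59.36 in TBI1, 68.70 in TBI2 and 111.2 in TBI3. All TBI libraries thus lay above all sham libraries, a separation seen in 4.77% of all genes. Without TBI3 the log2 fold change of *H2-D1* was 0.39 (edgeR unadjusted p = 0.093). Without Sham2, 11 of the 12 were higher in TBI, 5 at an unadjusted p under 0.05 in edgeR, against 1.91% of all genes. The same counts were found without TBI1 as well, against 2.58% of all genes. DESeq2 called *H2-D1* without Sham2 and TBI1 (adjusted p = 0.0339), and called neither gene with all 6 libraries or without Sham2 alone (adjusted p = 0.538 for *H2-D1* and 0.242 for *H2-T23*). Without Sham2 alone it called 1 gene of the list, *Gbp3*, a guanylate-binding protein gene (log2 fold change 1.02, adjusted p = 0.0183).

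Genes known from astrocytes after arterial occlusion, a model of stroke, were highest in Sham2 for 10 of the 11 tested. The sum over all 12 genes listed was 750.9 CPM in Sham2 against 110.7 to 263.2 in the others. *S100a10*, a calcium-binding protein gene, measured 23.73 CPM in Sham1, 139.3 in Sham2, 19.90 in Sham3, 57.08 in TBI1, 34.35 in TBI2 and 28.60 in TBI3. *Tgm1*, a transglutaminase gene, had 34.74 CPM in Sham2, 23.81 in TBI1 and 9.323 in TBI2, and at most 0.253 in the other 3 libraries. Of the 11, 0 were higher and 1 was lower at an unadjusted p under 0.05, *Ptgs2*, the inducible cyclooxygenase (log2 fold change −1.66, edgeR adjusted p = 0.982). In DESeq2 with its defaults *Ptgs2* was called as lower (adjusted p = 0.00126), and it was called without Sham2 as well (adjusted p = 0.0204). Without Sham2, 10 were higher in TBI in edgeR, 3 of them at an unadjusted p under 0.05, and *Ptgs2* was lower at that threshold (log2 fold change −1.48), with a median of 0.98 for the list. Without TBI1 as well, 8 of 10 tested were higher, 2 at an unadjusted p under 0.05, and the median was 0.41.

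The pathway named above, from interleukin-6 family cytokines through gp130 to STAT3, was read from 18 genes, of which 17 were tested and *Il6* was not. Its cytokine *Lif* measured 90.40 CPM in Sham2 and 0.562 to 1.580 in the other 5 libraries, and was the only one of the 17 with an unadjusted p under 0.05 in edgeR (log2 fold change −4.94, edgeR adjusted p = 0.982). Without Sham2 its log2 fold change was −0.23 (unadjusted p = 0.715 in edgeR). In that edgeR fit 0 of the 17 were lower and 1 was higher at an unadjusted p under 0.05. The median of the list turned from −0.53 to 0.24. In DESeq2 without Sham2 all 18 genes were tested, and 4 were higher and 0 lower at that threshold. Without TBI1 as well, 9 were higher and 8 lower in edgeR, and the edgeR median was 0.0076. In this fit 0 had an unadjusted p under 0.05 in edgeR or DESeq2. Among the receptors, *Osmr*, which binds oncostatin M, had 44.86 CPM in Sham2, 20.48 in TBI1 and 3.753 to 9.702 elsewhere. *Cntfr*, for ciliary neurotrophic factor, had its lowest level in Sham2, 43.96 CPM against 63.46 to 91.15. *Stat3* itself measured 46.79 CPM in Sham1, 209.7 in Sham2, 50.46 in Sham3, 103.3 in TBI1, 67.69 in TBI2 and 41.84 in TBI3. Of the STAT3 targets, the feedback inhibitor *Socs3* had 77.16 CPM in Sham2 and 12.15 in TBI1, against 1.852 to 5.847 in the other 4 libraries. Sham2 was highest for 11 of the 17 genes. The lists share some genes: *Osmr* was also counted among the pan-reactive genes and *Stat3* among those after arterial occlusion.

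Markers of resting astrocytes were lower in sum in Sham2, though not gene by gene. Their summed level over 14 genes was 5074 CPM there and 7650 to 9054 in the other 5 libraries. *Glul*, glutamine synthetase, measured 2139 CPM in Sham1, 877.0 in Sham2, 2198 in Sham3, 1508 in TBI1, 2227 in TBI2 and 2131 in TBI3. The glutamate transporter gene *Slc1a2* had 2013 CPM in Sham2 and 2470 to 3751 in the others, and *Aldoc*, an aldolase of astrocytes, 562.9 against 877.9 to 1454. By contrast the water channel gene *Aqp4* (401.2 CPM, against 170.4 to 381.0) and the transcription factor gene *Sox9* (75.37 CPM, against 20.76 to 51.79) were highest in Sham2. In the edgeR comparison of all 6 libraries, 1 of the 14 was higher in TBI at an unadjusted p under 0.05 and 0 were lower. It was the growth factor receptor gene *Fgfr3* (log2 fold change 0.44, edgeR adjusted p = 0.982). Without Sham2 the edgeR unadjusted p of *Fgfr3* was 0.0832, while 1 other of the 14 was higher at that threshold and 0 lower. Without TBI1 as well, edgeR had 2 higher and 0 lower. DESeq2 had 2 higher and 0 lower with all 6 libraries, and 4 higher and 1 lower without both.

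**Figure D4:**
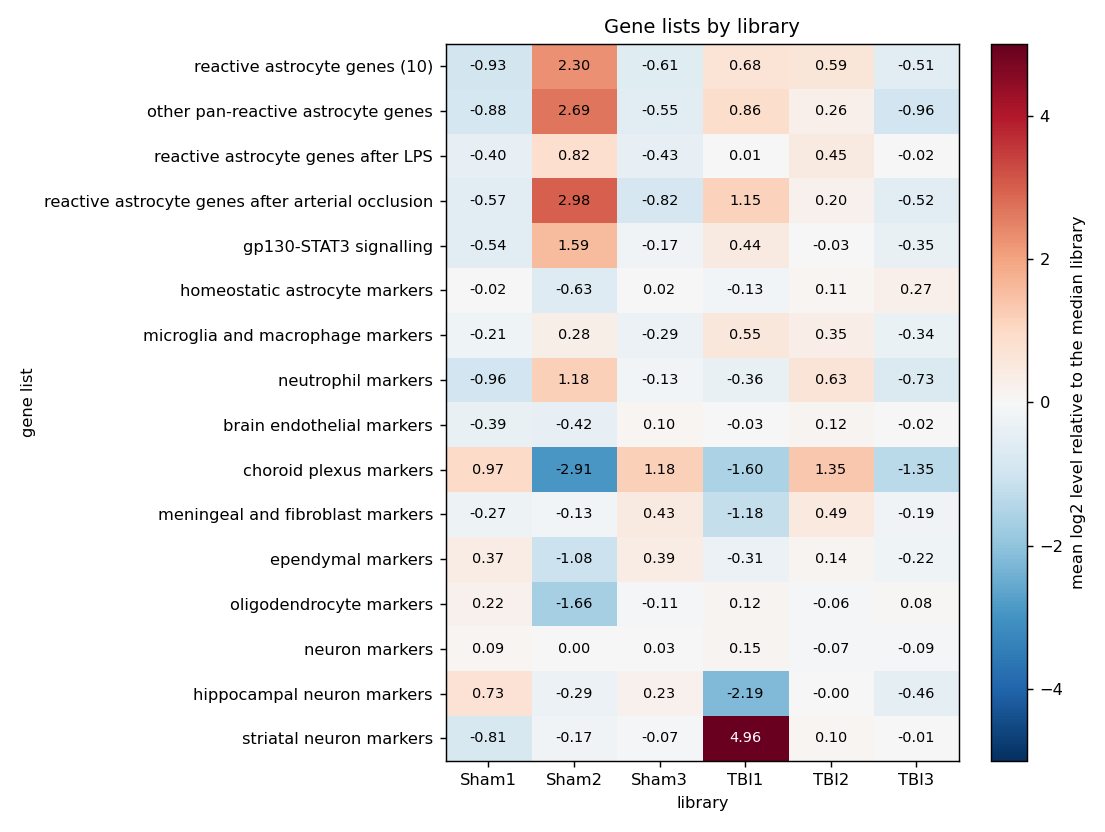
Mean log2 level of each gene list (rows) in each of the 6 libraries (columns), relative to the median library of each gene, with the value written in each cell and red for higher, blue for lower. The 10 reactive astrocyte genes stand at 2.30 in Sham2, 0.68 in TBI1 and 0.59 in TBI2, the oligodendrocyte markers at −1.66 in Sham2, and the striatal neuron markers at 4.96 in TBI1.

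Markers of other cells that can make the same genes were read beside them. Microglia and macrophage markers summed to 751.2 CPM in Sham2, 1041 in TBI1, 716.9 in TBI2 and 518.7 to 575.0 in the other 3 libraries, and only 1 of 14 was highest in Sham2, against 10 in TBI1. That 1 gene was *Cd14*, the co-receptor for LPS, with 29.68 CPM in Sham2, 14.21 in TBI1 and 2.388 to 5.373 elsewhere. *Cd14* was also counted above among the genes known from astrocytes after arterial occlusion. *P2ry12*, a receptor of resting microglia, was lowest in Sham2, at 6.580 CPM against 21.65 to 33.36. In TBI against sham, 13 of the 14 were higher (median log2 fold change 0.31), 0 at an unadjusted p under 0.05 in edgeR or DESeq2. Without Sham2, where 9 of the 10 reactive genes were higher in TBI, all 14 were higher (median 0.40), 2 at that threshold, and without TBI1 as well 11 were (median 0.13), 1 at that threshold. DESeq2 called the fractalkine receptor gene *Cx3cr1* higher in both fits (adjusted p = 0.0708 and 0.0526). Neutrophil markers, a source of *Lcn2* outside astrocytes, summed to 23.45 CPM in Sham2, 13.59 in TBI2 and 5.161 to 9.725 elsewhere, and between 1 (Sham2) and 6 (TBI1) of these 12 genes were at 0 in a library. Only 5 of the 12 passed the filter on low counts. *S100a8* measured 6.679 CPM in Sham2, 4.424 in TBI2 and 0.395 to 2.579 in the others. By contrast *Csf3r*, of the same list, had 6.835 CPM in TBI1, where it was highest, and 3.639 in Sham2. Brain endothelial markers summed to 347.4 CPM in Sham2, inside the range of 290.9 to 456.7 of the other 5, but their genes went both ways there. The transporter genes *Slco1a4* (5.01 CPM, against 36.99 to 54.45) and *Abcb1a* (11.89 CPM, against 24.27 to 37.42) were lowest in Sham2, while 3 of the 10 markers, the junction genes *Pecam1* and *Cdh5* among them, were highest in it. The part that such cells had in the levels of the 10 genes was not tested.

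Choroid plexus markers, which bear on *Cp*, split the libraries in another way. Their sum was 2058 CPM in Sham1, 55.58 in Sham2, 2115 in Sham3, 244.4 in TBI1, 2401 in TBI2 and 265.1 in TBI3, led by the transthyretin gene *Ttr*. TBI2, with the highest sum, had the highest *Cp* of the TBI libraries, while Sham2, with the lowest sum, had the highest *Cp* of all. Sham1, with a sum of 2058 CPM, had the lowest *Cp* of all, 10.86 CPM. In Sham3, TBI1 and TBI3, with sums of 2115, 244.4 and 265.1 CPM, *Cp* was close together at 16.49, 15.26 and 15.54 CPM.

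The genes whose pattern over the 6 libraries was most like the mean of the 10 members were found among 18785 other genes, by the root mean square difference of their centred log2 levels. *Anxa2*, which encodes a membrane-binding annexin, came first, with a difference of 0.182, and measured 9.951 CPM in Sham1, 90.00 in Sham2, 13.05 in Sham3, 37.58 in TBI1, 23.04 in TBI2 and 13.37 in TBI3. The next were *Rhoj* (0.184), a small GTPase, *Adam8* (0.198), a membrane protease, *Fcgr2b* (0.215), an inhibitory Fc receptor, and *Col16a1* (0.236), a collagen. They were followed by *Usp18* (0.255), *Plaur* (0.264), *Slfn8* (0.264), *Tnfrsf1a* (0.265), a receptor for tumour necrosis factor, and *Angpt2* (0.282). Among the members themselves *Gfap* was the nearest to their mean (0.205), and *Lcn2* (1.31) and *Cd109* (1.22) were the farthest from it.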

How the data were processed

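Hippocampal RNA of 3 sham and 3 TBI mice was compared, with groups and replicate numbers taken from the sample labels. The authors used FastQC for quality control, HISAT2 for alignment to GRCm38 and StringTie for quantification, and deposited estimated counts, 1 whole number for each gene and library with no scaling. Versions of these tools, the gene annotation, whether strand was used and how StringTie's coverage became counts are not given in the sources used here. Of 52550 identifiers 52403 were matched to a symbol of GENCODE vM21, and 49035 were identical to it with their version, so gene models may differ slightly from those used in the counting.

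Counts were filtered with filterByExpr, scaled by TMM and tested with edgeR 4.0.16 (quasi-likelihood, Benjamini-Hochberg over all 18795 genes tested) in R 4.3.3, with limma 3.58.1 loaded. The thresholds for a call followed the study's methods. The standard error is the size of the log2 fold change divided by the square root of F. DESeq2 1.42.0, which the study used, was the alternative test. Levels between genes were compared as CPM per kb of union exon length. The script was tested on simulated data. With 3 against 3 libraries an exact permutation test of 1 gene cannot go below p = 0.1, and none was run.

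The members and lists were chosen with earlier results of these data known. Genes named are the 10 members, the 3 most abundant per kb and the 2 with the widest range of log2 CPM (mean of at least 1 CPM) of a list, and the 10 genes nearest in pattern. *H2-T23*, *Ptgs2*, *Fgfr3*, *Osmr*, *Socs3*, *Aqp4*, *Sox9*, *Pecam1*, *Cdh5*, *Gbp3* and *Cx3cr1* fall outside this rule and were named after their values were seen. From the lists, those that bear on the members are described. Alternatives were other scalings, filters, DESeq2, the replicate number as a block and each library left out. Leaving out Sham2 and TBI1 together, and DESeq2 without these libraries, were chosen after seeing the data.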

Additional observations from a re-analysis of the deposited data

How the results depend on the processing

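The cause of the changes below was not tested, except that fewer libraries entered the fits that left some out. The number of members called by edgeR was 0 under every scaling, filter and threshold tried and with each library left out (range 0 to 0). It was 1 in DESeq2 without Sham2 and 2 without Sham2 and TBI1. Over all genes edgeR called 0 and DESeq2 with its defaults 46, and without both libraries they called 3 and 96. The median log2 fold change of the members, −0.64, ranged from −1.14 (without TBI2) to 1.10 (without Sham2) with 1 library left out. It was 1.09 in DESeq2 without Sham2, and without Sham2 and TBI1 0.64 in edgeR and 0.63 in DESeq2.

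Without both Sham2 and TBI1, the log2 fold changes that turned were, in edgeR and then DESeq2, *Gfap* 0.50 and 0.49, *Serpina3n* 0.24 and 0.22, *Cd44* 1.10 and 1.08, *Steap4* 1.62 and 1.61, *S1pr3* 0.41 and 0.39, *Cp* 0.56 and 0.55, and *Aspg* 1.03 and 1.01. In DESeq2 without Sham2 they were 0.78 for *Gfap*, 0.65 for *Serpina3n*, 1.85 for *Cd44*, 1.24 for *Steap4*, 1.11 for *S1pr3*, 0.43 for *Cp* and 1.08 for *Aspg*. With each library left out in turn, edgeR gave −1.11 to 0.79 for *Gfap*, −0.28 to 1.15 for *Vim*, −1.94 to 0.66 for *Serpina3n*, −0.53 to 4.07 for *Lcn2*, −2.56 to 1.85 for *Cd44*, −1.49 to 1.25 for *Steap4*, −2.32 to 1.11 for *S1pr3*, −0.39 to 0.44 for *Cp*, −1.85 to 1.09 for *Aspg* and −0.81 to −0.17 for *Cd109*. The highest value was without Sham2 for the first 9. With library totals in place of TMM, *Lcn2* was −0.013. The filter of at least 10 counts in every library left *Lcn2* out.

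Same-numbered libraries did not deviate together (correlations −0.0996, −0.065 and 0.153), so the numbers were not taken to pair mice. With the replicate block, *Lcn2* was 1.69 in place of 0.027, *Vim* 0.42 in place of 0.15, *Cd44* 0.18, *Steap4* 0.027 and *Cp* 0.0090, the median of the members was −0.071, and no member was called.

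Over the lists other than the members, 15 genes had an unadjusted p under 0.05, against 7 (without Sham1) to 23 (without TBI2) with 1 library left out, and 29 and 32 in DESeq2 without Sham2 and without both. Striatal neuron markers, all highest in TBI1, made up 7 of the 15 and 9 of the 23. Without TBI1 only 1 of them was under 0.05 in edgeR. Low counts limit *Lcn2* and *Steap4*, which had under 50 counts in 3 and 4 libraries.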
